A study of Mus musculus with 3 samples.

Results

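Fras1, Frem1, Frem2, Grip1 and Npnt were examined in the embryonic mouse ureter, the tube that carries urine from kidney to bladder. They were taken as every probe set of the array whose annotation names 1 of these symbols and no other, which gave 11 probe sets of 5 genes among 34958 probe sets of 18194 genes. The probe sets were selected by name, not by signal, although the genes were picked with earlier results of these data known. The probe set whose log2(signal + 1) averaged highest over the arrays stands for its gene, and the others are described beside it.

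The samples form 1 group: 3 ureters, replicates 3, 8 and 9, of wild-type FVB/N embryos at embryonic day 15 (Theiler stage 23), not pooled, with the sex given as unknown. The tissue was cut out between the renal pelvis and the bladder, RNA was amplified in 2 rounds, and every sample had its own Affymetrix Mouse Genome 430 2.0 array, read in 1 colour. Whether separate embryos or litters were used is not stated in the labels, so part of the spread may be technical. With 1 group there is no contrast to test, and every level is only as precise as 3 arrays allow.

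FRAS1 and FREM2 are large proteins anchored in the membrane at the base of embryonic epithelial cells, and FREM1 is a secreted relative. They depend on each other for their place in the basement membrane, the sheet of matrix beneath an epithelium. GRIP1 is an intracellular scaffold with PDZ domains that carries FRAS1 and FREM2 to the basal side of the cell. Nephronectin, the product of Npnt, is a secreted matrix protein that binds integrin α8β1 on neighbouring mesenchyme and is held in the basement membrane by the FRAS1 and FREM proteins. Loss of the complex causes Fraser syndrome and related disorders, with fused eyelids, skin blisters and absent kidneys, because the ureteric bud, which forms ureter and collecting ducts, fails to invade the kidney mesenchyme.

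Of these genes, RefSeq (GRCm38.p6) promoter windows, from 250 bases before to 50 bases after a transcript start, were held for 4, and Fras1 was not among them. Where several starts are listed, the one farthest upstream was taken. The windows of Frem1 and Npnt are shown because these genes had the widest ranges between arrays among the members. They are written 5′ to 3′ on the gene's strand with CpG dinucleotides, the sites of DNA methylation, in capitals.
Frem1, chr4:83052117-83052416, minus strand: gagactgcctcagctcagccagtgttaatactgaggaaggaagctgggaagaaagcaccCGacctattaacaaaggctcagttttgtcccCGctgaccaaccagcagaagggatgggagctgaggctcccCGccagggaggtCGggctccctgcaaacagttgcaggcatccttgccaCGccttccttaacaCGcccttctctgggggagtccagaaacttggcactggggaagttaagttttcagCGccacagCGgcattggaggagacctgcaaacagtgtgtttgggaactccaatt
Npnt, chr3:132950242-132950541, minus strand: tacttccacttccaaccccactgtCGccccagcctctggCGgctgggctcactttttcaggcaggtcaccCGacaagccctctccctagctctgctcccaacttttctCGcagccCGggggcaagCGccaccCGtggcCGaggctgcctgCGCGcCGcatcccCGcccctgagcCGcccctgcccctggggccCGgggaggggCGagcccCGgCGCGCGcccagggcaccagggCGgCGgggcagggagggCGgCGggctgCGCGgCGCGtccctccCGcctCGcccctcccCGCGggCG
The Frem1 window holds 8 CpG dinucleotides and the Npnt window 32, against a median of 7 over 32851 windows of the same length. The Npnt window has more than 90.5% of all windows and the Frem1 window more than 51.4%. The Grip1 window holds 38 and the Frem2 window 13. These counts depend on the start chosen: the windows of the 3 listed Grip1 starts hold from 1 to 38, and those of the 2 Frem1 starts from 5 to 8. Methylation was not measured, and the windows were not compared with the signals.

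Each of the 5 genes gave signal above background on all 3 arrays, where 55.6% of all named genes did. Background is the 95th percentile of 43 genes chosen because they belong to tissues that were not dissected (eye, testis, mammary gland, pancreas, pituitary and others). It came to 301, 294 and 473 signal units in replicates 3, 8 and 9. Signals are linear array units scaled by the authors to a common mean per array. A gene's brightness also depends on its probes, so where genes of a list are picked by their mean signal, this names bright probe sets and does not rank transcripts. In bulk tissue, fewer cells of a type and less RNA per cell cannot be told apart.

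Fras1 had signals of 3502, 3204 and 3047 in replicates 3, 8 and 9 (3251 ± 231). Here and below, ± gives the SD over the arrays (n = 3). All 3 arrays lay close together, between 6.44 and 11.6 times background. The range over arrays was 0.20 on the log2 scale, smaller than that of all but 9.84% of the 10118 genes above background, and it was 0.073 without replicate 3 and 0.13 without replicate 9. Frem2, whose protein stands beside FRAS1 in the membrane, had signals of 3298, 2480 and 2509 in replicates 3, 8 and 9 (2762 ± 464). Replicate 3 was the highest, and replicates 8 and 9 were nearly equal, so that without replicate 3 the Frem2 range went from 0.41 to 0.017. The range over all 3 arrays was larger than that of 34.0% of genes above background. Frem2 has 1 probe set on the array, so no other one can be set beside it.

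Frem1, the gene of the secreted relative, had signals of 2627, 3412 and 1712 in replicates 3, 8 and 9 (2584 ± 851). It had the widest range of the 5 genes, 0.99 on the log2 scale, which was larger than that of 84.6% of genes above background. Replicate 8 was highest and replicate 9 lowest, with a signal in replicate 8 that was 1.99 times that in replicate 9. Without replicate 9 the range was 0.38, and without replicate 8 it was 0.62. Frem1 too rests on 1 probe set.

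Grip1, the scaffold gene, had signals close to background: 811, 878 and 734 in replicates 3, 8 and 9 (807 ± 72.3). These were 2.69, 2.99 and 1.55 times background. When background was raised to the 99th percentile, Grip1 was no longer above it, the only one of the 5 genes for which that happened. The 3 arrays differed by 0.26 on the log2 scale, a range larger than that of 15.4% of genes above background, and by 0.12 without replicate 9 and 0.14 without replicate 8. The other Grip1 probe set was below background on every array, with signals of 116, 26.7 and 350 in replicates 3, 8 and 9. Both probe sets of Grip1os1, a gene named as opposite-strand partner of Grip1, were also below background on every array, at 8.06 ± 5.81 and 64.9 ± 34.6.

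Npnt, the integrin ligand gene, had signals of 3390, 4685 and 5135 in replicates 3, 8 and 9 (4403 ± 906). Replicate 3 was the lowest and the other arrays lay closer together, and the log2 range of 0.60 was larger than that of 56.2% of genes above background. Without replicate 3 the range was 0.13. A second Npnt probe set above background on all arrays had signals of 1494, 2641 and 2925 (2353 ± 758). It kept the same order of arrays, with replicate 3 lowest and replicate 9 highest, over a log2 range of 0.97.

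Probe sets of the same gene did not give the same call. Of the 11 probe sets, 6 were above background on all 3 arrays, against 44.2% of all probe sets with 1 symbol, 1 was above it on 1 array and 4 on none. Npnt alone had 5 probe sets, 4 of them annotated with the same expressed sequence tag, a short read of a cDNA. Of these 4, the pair described above was above background on all arrays. Another had signals of 226, 340 and 403 in replicates 3, 8 and 9, above background only in replicate 8, and it too was lowest in replicate 3 and highest in replicate 9. The last of the 4 was below background on every array (96.1 ± 23.3), as was the probe set annotated with a RefSeq transcript (21.5 ± 21.5). The other Fras1 probe set was also below background throughout, with signals of 82.1, 102 and 228 in replicates 3, 8 and 9. Such splits were common on these arrays: 6639 genes above background had more than 1 probe set, and in 4969 of them (74.8%) some probe set was not above it. With a gene taken as the mean of its probe sets, 3 of the 5 genes were above background, Grip1 and Npnt no longer among them, where 43.0% of all genes were.

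**Figure D1:**
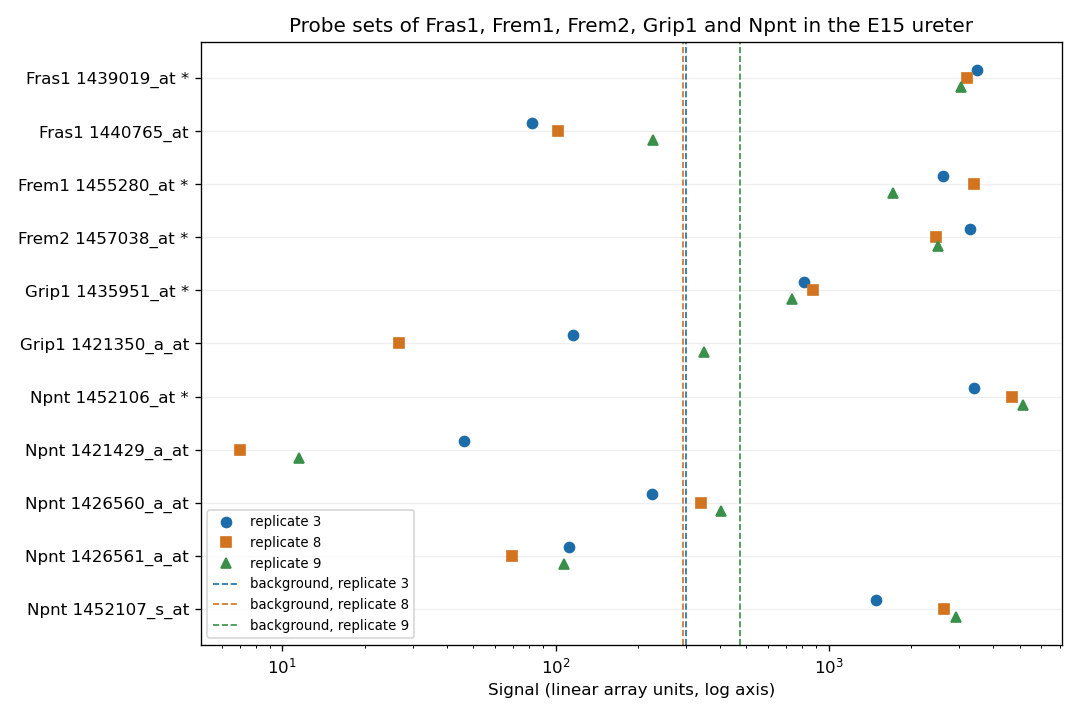
Signal (log axis, linear array units) of the 11 probe sets of the 5 genes on each array, with a dashed line at each array's background and an asterisk at the probe set that represents the gene. Points are single arrays. The asterisked probe sets and 1 further Npnt probe set lie to the right of all 3 lines, and the asterisked Grip1 probe set lies close to them.

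Where labelled RNA stops short of the 5′ end, probe sets far from the 3′ end are dim. For Actb, the array's controls gave 3′ to 5′ signal ratios of 7.45, 6.50 and 4.005 in replicates 3, 8 and 9, and for Gapdh 18.9, 15.1 and 16.4. The 3′ signal was thus the brighter on every array. The places of the members' probe sets along their transcripts were not analysed here, and the part of this bias in their signals was not tested.

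The 5 genes did not rise and fall together over the arrays. After each array's median deviation was taken off, Fras1 and Frem2 were highest in replicate 3, by 0.10 and 0.26 on the log2 scale above their 3-array means. Frem1 and Grip1 were highest in replicate 8, by 0.44 and 0.11, and lowest in replicate 9, at −0.51 and −0.11. Npnt ran from −0.36 in replicate 3 to 0.27 in replicate 9. The median range of the 5 genes was 0.41, where it was 0.55 over all genes above background. With quantile normalization the highest array of each gene stayed the same, and the lowest one changed for Fras1, from replicate 9 to replicate 8.

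Epithelial genes, which mark the cells known to make FRAS1 and FREM2, moved more between the arrays than Fras1 did. So did most genes above background, of which only 9.84% had a smaller range than Fras1. Of 12 epithelial markers 10 were above background, the brightest probe sets being those of Krt8 (20576 ± 3054), Krt18 (5937 ± 1390) and Krt19 (4986 ± 1414), which encode keratins, and of Foxa1 (5301 ± 1781), which encodes a transcription factor. Those not above background were Cldn3 and Cldn4 (305 ± 107 and 262 ± 106), genes of tight junctions, and no marker was at 0. The 12 signals added up to 49645, 71575 and 42883 in replicates 3, 8 and 9, so that the highest sum was 1.67 times the lowest. Fras1 differed 1.15-fold and Frem2 1.33-fold between their highest and lowest arrays, and both were highest in replicate 3. Single markers of the 12 differed from 1.28-fold (Grhl2) to 4.72-fold, and only Grhl2 moved less than Frem2. Of the 12 markers, 8 were highest in replicate 8 and 8 lowest in replicate 9, the same arrays as for Frem1 and Grip1. How many of all named genes shared these arrays was not counted, so the match cannot be called particular to epithelial genes. These arrays were also the highest and lowest for the sums of smooth muscle markers (76014, 77936 and 66892 in replicates 3, 8 and 9, 5 of 8 genes above background) and of ureteric tip and collecting duct markers (5449, 9374 and 4239, 4 of 6 above). Of the 8 smooth muscle genes, 4 were highest in replicate 8 and 5 lowest in replicate 9. The brightest of them, Acta2, ran the other way (32411, 27441 and 35288). In the tip and duct list 4 of 6 were highest in replicate 8 and 3 lowest in replicate 9. No gene of either list was at 0. Mesenchymal markers, all 9 above background and none at 0, had sums of 204900, 190711 and 210004. Single genes of that list varied more than its sum: the T-box gene Tbx18 had signals of 7828, 20079 and 7442, and the median log2 range of the list was 0.73. The part of epithelial, muscle and mesenchymal content in the members' signals was not tested.

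**Figure D2:**
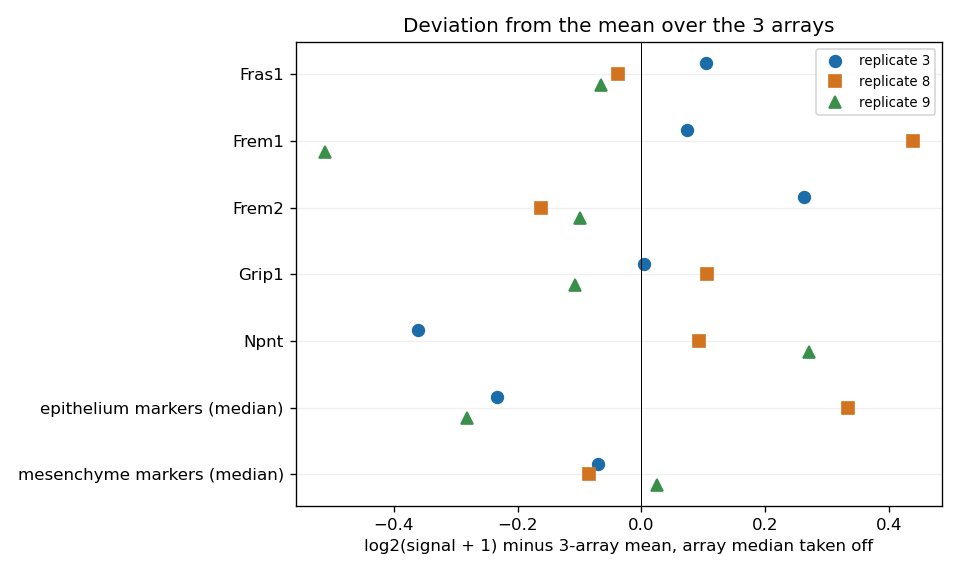
Deviation of log2(signal + 1) on each array from the mean of the 3 arrays, after the array's median deviation was taken off, for the 5 genes and for the median of 12 epithelial and 9 mesenchymal markers. Points are single arrays. Frem1 spans −0.51 to 0.44, Npnt is lowest in replicate 3, and the epithelial median is highest in replicate 8 (0.33).

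Likeness was measured over all genes above background, the other members included, as the largest log2 difference in deviation over the 3 arrays. Nearest to Fras1 were Abt1, Sf3b1 and Arhgef7, within 0.0042, and nearest to Frem1 were Rsrc2, Zfp711 and Nsun2, within 0.018. Gm9958, Podn and Pitpnc1 lay nearest to Frem2 (within 0.0099), Ubtf, Cbr1 and Tmem64 to Grip1 (0.0065) and Gabbr1, Akna and Itgb3 to Npnt (0.0083). Over 3 arrays such likeness is weak, since 713 genes lay within 0.1 of Fras1, 721 of Grip1, 346 of Frem2, 238 of Npnt and 118 of Frem1. No member was among the 3 nearest genes of another member, but with so many close genes this says little about whether they vary together.

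The receptor of nephronectin was measured beside it. Itga8, the gene of the integrin α8 chain, had signals of 3813, 8473 and 5456 in replicates 3, 8 and 9 (5914 ± 2363). Itgb1, the gene of the β1 chain that pairs with many α chains, had signals of 2458, 4024 and 2061 (2848 ± 1038). Both were highest in replicate 8, whereas Npnt was highest in replicate 9. Both Itga8 probe sets were above background on all arrays, but the dimmer one (322, 696 and 970) was highest in replicate 9, so the order of arrays for Itga8 depends on the probe set. Of 6 Itgb1 probe sets 2 were above background on all arrays, and both were highest in replicate 8 and lowest in replicate 9.

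Other ligands of integrin α8β1 were also above background. Fn1, the fibronectin gene, had signals of 24303, 16562 and 20891 in replicates 3, 8 and 9, while its other probe set (12.5, 110 and 489) was above background only in replicate 9. Tnc, the tenascin C gene, had signals of 752, 570 and 2118. It was thus highest in replicate 9, like Npnt, and its other probe set was below background on every array. Vtn, the gene of vitronectin, a plasma and matrix protein made in liver, had signals of 8389, 2729 and 2799, highest in replicate 3, as was its other probe set (2017, 495 and 444). Hepatocyte markers, 6 of 6 above background and none at 0, had summed signals of 200924, 112746 and 160015, and all 6 were highest in replicate 3 and lowest in replicate 8. The lowest array was replicate 8 for the first Vtn probe set and replicate 9 for the other. The part of liver RNA in the Vtn signal was not tested. Spp1, the osteopontin gene, was not analysed here. With Npnt counted, all 6 measured genes of the receptor and ligand list were above background, where 55.6% of all named genes were.

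Among relatives of the members, Egfl6, whose protein has the same kind of domains as nephronectin, had signals of 3755, 1460 and 3314 in replicates 3, 8 and 9 (2843 ± 1218). It was lowest in replicate 8, unlike Npnt. Grip2, the paralogue of Grip1, had signals of 383, 537 and 1071 and was above background on all arrays, highest in replicate 9. Hmcn1, the gene of the basement membrane protein hemicentin, had signals of 1364, 474 and 381, above background in replicates 3 and 8 only. Vwa2, whose product AMACO is a basement membrane protein that associates with FRAS1, was below background on every array (112, 274 and 139). Frem3 was not analysed here. Of the 4 relatives measured, 2 were above background on all arrays, a share close to the 55.6% of all named genes.

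In a list of GRIP1 binding partners and fellow scaffold genes, Efnb1, an ephrin gene, had signals of 1503, 2227 and 1832 in replicates 3, 8 and 9. Pick1, which encodes another PDZ scaffold, gave 825, 735 and 797 and so differed little between arrays. Gria2, the gene of a glutamate receptor subunit that GRIP1 binds in neurons, was above background on 2 arrays (360, 187 and 685). With Grip2, 3 of 4 measured genes of this list were above background, where 55.6% of all named genes were. Ephb2 was not analysed here.

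**Figure D3:**
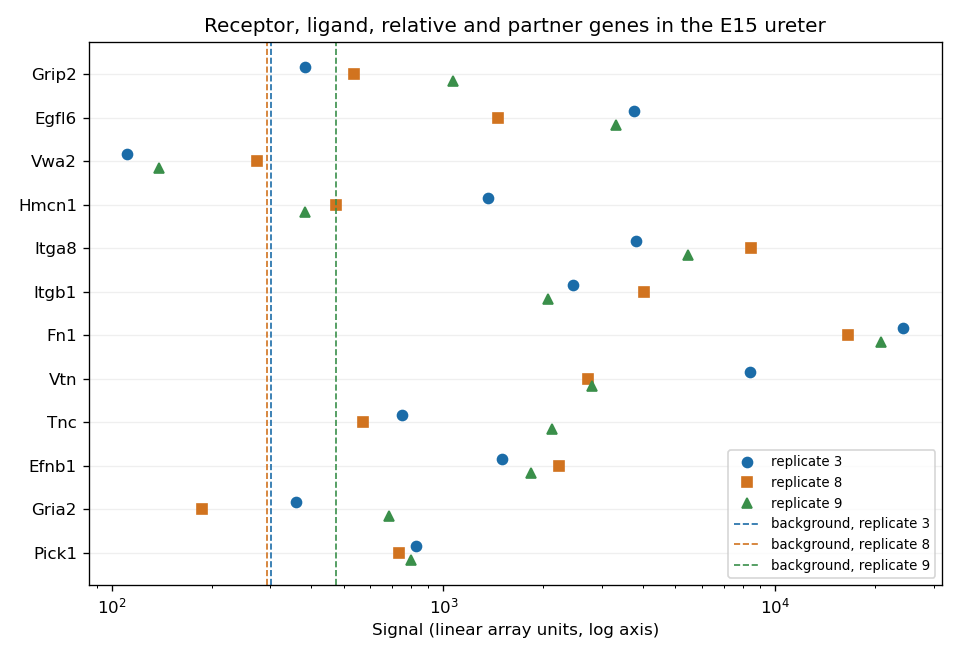
Signal (log axis, linear array units) on each array of the integrin α8β1 receptor and ligand genes, the relatives of the members and the adaptor partners, by their representing probe set. Points are single arrays and dashed lines each array's background. Vwa2 lies left of the background of its own array in all 3 replicates, and Hmcn1 and Gria2 on 1 array each.

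Of 13 genes of the basement membrane itself, 11 were above background, where 55.6% of all named genes were. Col4a1, a type IV collagen chain, had a signal of 17417 ± 1288, Lamb1, a laminin chain, 16465 ± 1961, Agrn, the gene of the proteoglycan agrin, 9288 ± 1941, and Nid1, the gene of the linker nidogen, 9217 ± 467. Lama1 was above background on 1 array (293 ± 69.1) and Col7a1, the gene of the anchoring fibril collagen, on 2 (398 ± 56.0). The summed signal of the 13 genes was nearly level over the arrays, at 71973, 71664 and 70475 in replicates 3, 8 and 9. The median log2 range of the list was 0.38, with Lama1 and Col7a1 included, and that of all genes above background was 0.55. The members had a median of 0.41, but their ranges spread from 0.20 to 0.99, so likeness of the medians says little.

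In the kidney, nephronectin and integrin α8β1 act upstream of Gdnf, the growth factor that signals through RET to the ureteric bud. Of 10 measured genes of this axis 9 were above background, where 55.6% of all named genes were. The brightest probe sets were those of Eya1, a transcriptional coactivator gene (4920 ± 1933), Spry1, an antagonist of receptor tyrosine kinases (3367 ± 441), Sall1, a zinc finger factor gene (2822 ± 187), and Etv5, a RET target gene (2807 ± 1176). Etv4, another RET target gene, was below background on every array (94.5 ± 58.3). Gdnf and Ret were named after their values were seen. Gdnf had signals of 2192, 1949 and 1207 in replicates 3, 8 and 9, lowest in replicate 9, where Npnt was highest. Ret had signals of 388, 628 and 581, lowest in replicate 3 as Npnt was. These were close to background, at 1.29, 2.14 and 1.23 times its level. The other Ret probe set was below background (227, 212 and 279) and lowest in replicate 8, so the order of arrays for Ret depends on the probe set.

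**Figure D4:**
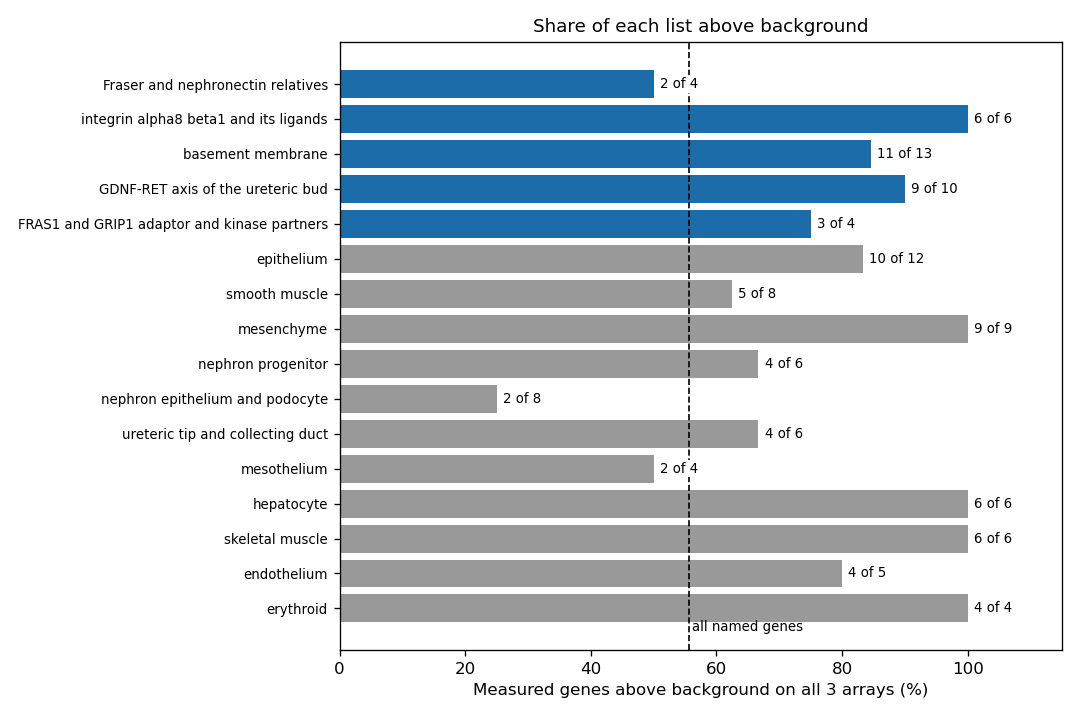
Percent of the measured genes of each list above background on all 3 arrays, for pathway lists (blue) and cell type markers (grey), with the numbers beside the bars and a dashed line at the 55.6% of all named genes. Npnt is counted in the receptor and ligand list, all 6 of which are above background, as are 2 of 8 nephron epithelium and podocyte genes.

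Over all pathway lists, with the members left out, 29 of 35 measured genes (82.9%) were above background, where 55.6% of all named genes were. Their median log2 range was 0.57. Markers of other tissues were above background as well, with 6 of 6 skeletal muscle genes and 4 of 4 erythroid genes. None of these markers was at 0. Erythroid sums were 146680, 71584 and 105642 in replicates 3, 8 and 9, highest in replicate 3 as Fras1 and Frem2 were, and skeletal muscle sums were 71167, 62138 and 60379. Their part in the members' signals was not tested.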

How the data were processed

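Per the labels, total RNA of 3 ureters was amplified in 2 rounds, biotin-labelled and hybridised to 1-colour arrays. The authors deposited 1 linear intensity per probe set and array. GCOS is named in the submitters' processing notes, but for its version, background handling and detection calls nothing was given in the sources used here. The 2% trimmed mean was 1500 on each array, and medians were 234, 198 and 273 in replicates 3, 8 and 9, so levels are relative to the rest of each array.

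Of 45101 probe sets, 34958 had 1 gene symbol in the platform annotation, 932 several and 9211 none. Values were analysed as log2(signal + 1) in Python 3.11.15 (numpy 2.4.6, pandas 2.3.3). A gene was above background when it exceeded the 95th percentile of the reference list (43 of 48 genes measured) on every array. Cela1 and Cbln1 of that list were themselves above it. Calls and the likeness search were run on simulated data and recovered the planted genes. Those were far brighter than the rest and the planted profile held no noise, so recovery could hardly fail. This checks the code and not calls near background, such as that of Grip1. With 1 group no test between groups was made. Named were all members and probe sets, all measured receptor, ligand, relative and adaptor genes, up to 4 genes with the highest mean in the other pathway lists and the epithelial list, members of any list not above background, and the 3 most similar genes per member. Gdnf, Ret, Tbx18, Calb1, Podxl, Synpo, Acta2 and Grhl2 were named outside these rules. The members and lists were chosen with earlier results of these data known. Alternatives are given below.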

Additional observations from a re-analysis of the deposited data

How the results depend on the processing

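Counts per list, splits between probe sets, likeness and shares of genes with smaller ranges were computed only under the settings given above. Counts above background of members, their probe sets and pathway genes, with members' levels and ranges, were recomputed under each alternative that bears on them. These were scaling by quantile normalization, a pseudocount of 16 or 64, averaging over the probe sets of a gene, dropping _x_at and _s_at probe sets, background at the 90th or 99th percentile, a reference list without exocrine pancreas genes, presence on at least 2 arrays, and 1 replicate fewer. The count of 5 genes above background stayed at 5 in all of these except the mean of probe sets (3) and the 99th percentile (4). For most of these settings that outcome was nearly fixed. The 90th percentile, at least 2 arrays, 1 replicate fewer and the shorter reference list loosen the rule. A pseudocount moves genes and background together. No member is represented by an _x_at or _s_at probe set, so dropping those left the members' values as they were. Quantile normalization could have lowered the count and did not. Averaging brings in the probe sets that were below background. The count of probe sets stayed at 5 or 6, and that of pathway genes lay between 20 (mean of probe sets) and 32 (at least 2 arrays) of 35. The share of all named genes moved too. It was 43.0% with the mean of probe sets, 46.9% at the 99th percentile and 61.3% with at least 2 arrays. Without _x_at and _s_at probe sets it was 52.5%, without exocrine pancreas genes 60.5% and at the 90th percentile 61.1%. Without 1 replicate the counts were 5 for genes, 6 for probe sets and from 29 to 31 for pathway genes. At those settings 56.1% to 60.1% of all named genes were above background. The mean of probe sets also raised the log2 range of Grip1 from 0.26 to 1.70 and of Fras1 from 0.20 to 0.63 and made replicate 9 the highest for both. For Npnt it lowered the range from 0.60 to 0.36, with replicate 8 in place of replicate 3 as the lowest. Mean log2 levels went from 12.08 to 8.43 for Npnt, from 11.66 to 9.32 for Fras1 and from 9.65 to 8.18 for Grip1. Quantile normalization raised the Grip1 range to 0.43 and shifted the median of all genes by 0.10 in replicate 8 and −0.11 in replicate 9. Ranges without 1 array rest on the other 2. The depth of signal over background limits Grip1 most. No paired analysis was possible because there is 1 group.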

Other observations

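Genes of the mature nephron were mostly not above background. Of 8 genes of nephron epithelium and podocytes, 2 were above it. Podxl (4964 ± 1024) and Synpo (2477 ± 558) were, while the nephrin gene Nphs1 (61.8 ± 39.0), the uromodulin gene Umod (80.5 ± 42.9), the transporter genes Slc34a1 (78.7 ± 22.0) and Slc12a1 (94.9 ± 38.9) and the endocytic receptor genes Lrp2 (210 ± 72.8) and Cubn (213 ± 17.8) were below it on every array. Of 6 genes of the ureteric tip and collecting duct, 4 were above background. Calb1, the calbindin gene, had signals of 1375, 3126 and 542 in replicates 3, 8 and 9. The water channel gene Aqp2 was below background on every array (62.4 ± 54.2), while Aqp3, another water channel gene, was above it in replicates 3 and 8 (906, 909 and 366). Among smooth muscle genes, Myh11 (1244 ± 674) and Myocd (662 ± 408) were above background on 2 arrays and Cnn1 (283 ± 178) on 1. Of the mesothelial genes, Lrrn4 (354 ± 201) was above it on 2 arrays and Msln (162 ± 109) on none. The endothelial gene Pecam1 (236 ± 80.0) and the nephron progenitor gene Osr1 (283 ± 205) were above it on 1 array each, and Cited1 (174 ± 46.9), also of the progenitor list, on none.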
